A study of Strongylocentrotus purpuratus and Patiria miniata with 14 samples.

Results

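Open chromatin regions of the bat sea star Patiria miniata were compared between the late gastrula at 66 hours post fertilization (hpf) and the bipinnaria larva at 90 hpf. The 4 ATAC-seq peak lists of these stages, 2 replicate libraries per stage out of 14 libraries in the series, were merged wherever peaks overlapped by at least 1 bp. This gave 92188 regions, of which 6973 (7.56%) were gained, with a peak in both 90 hpf libraries and in neither 66 hpf library, and 2336 (2.53%) were lost, with the reverse pattern. A further 35411 regions (38.4%) were shared by all 4 libraries. All embryos were wild type, grown at 15 °C in seawater and lysed whole, without any sorting or treatment, and 2 libraries from mesenchyme blastulae at 24 hpf, made in the same way, served as an outside reference. The series also holds sea urchin libraries, which were not used here. Nothing in the labels says that replicates came from separate cultures or parents, and their spread can be technical.

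ATAC-seq uses the Tn5 transposase to cut DNA that is not wrapped in nucleosomes, and a peak of cuts is a common proxy for an active promoter or enhancer, called here a putative cis-regulatory element (pCRE). Between late gastrula and bipinnaria the sea star embryo finishes its tripartite gut, opens a mouth, extends its coelomic pouches and shapes its ciliary bands, and becomes a larva able to feed. Cells of the gut, muscle and nervous system differentiate over this period. In whole embryos, a smaller share of cells of a type and less accessible chromatin within each cell cannot be told apart.

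The lists held 56044 and 58073 peaks at 66 hpf and 63340 and 72079 at 90 hpf. The mean was 57058.5 ± 1434.7 against 67709.5 ± 6179.4 (SD, n = 2 each), and the exact two-sided permutation test gave p = 0.333, the smallest value that 2 against 2 libraries allow. Total reads are not in the lists. The fold enrichment and p of each peak return the whole number of sequencing tags at its summit and the local background that the peak caller set against it, and the lowest background of a list is proportional to library depth. This background was 1.27 and 1.11 tags per 100 bp at 66 hpf, 1.62 and 1.93 at 90 hpf, and 1.72 and 1.61 at 24 hpf, so the 90 hpf libraries were on average 1.49 times as deep as those at 66 hpf. The study's own list of sequenced reads also has fewer reads for each 66 hpf library than for either 90 hpf library. A region without a peak was below the calling threshold of that library, which is not a measurement of closed chromatin.

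Gained regions outnumbered lost ones 2.99 times in the lists as deposited. The order changed with how lists of unequal length and depth were treated. When each list was shortened to the same number of top peaks, 4309 gained and 3433 lost regions were found, a ratio of 1.26. When the tags and background of every peak were scaled to the depth of 66 hpf replicate 2 and only peaks with a scaled −log10 p of at least 5 were kept, a treatment chosen after the data were seen, 3359 regions were gained and 3664 were lost, a ratio of 0.917. Of the gained regions, 40.2% stayed gained after depth matching, and of the lost regions 74.7% stayed lost. Requiring a q of at most 0.001 left the counts at 6792 and 2175. The remaining 47468 regions (51.5%) had mixed calls, and 19347 of them were called in a single 90 hpf library against 9636 in a single 66 hpf library. The larger 90 hpf list, replicate 2, alone held 11646 regions seen in no other list.

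**Figure D1:**
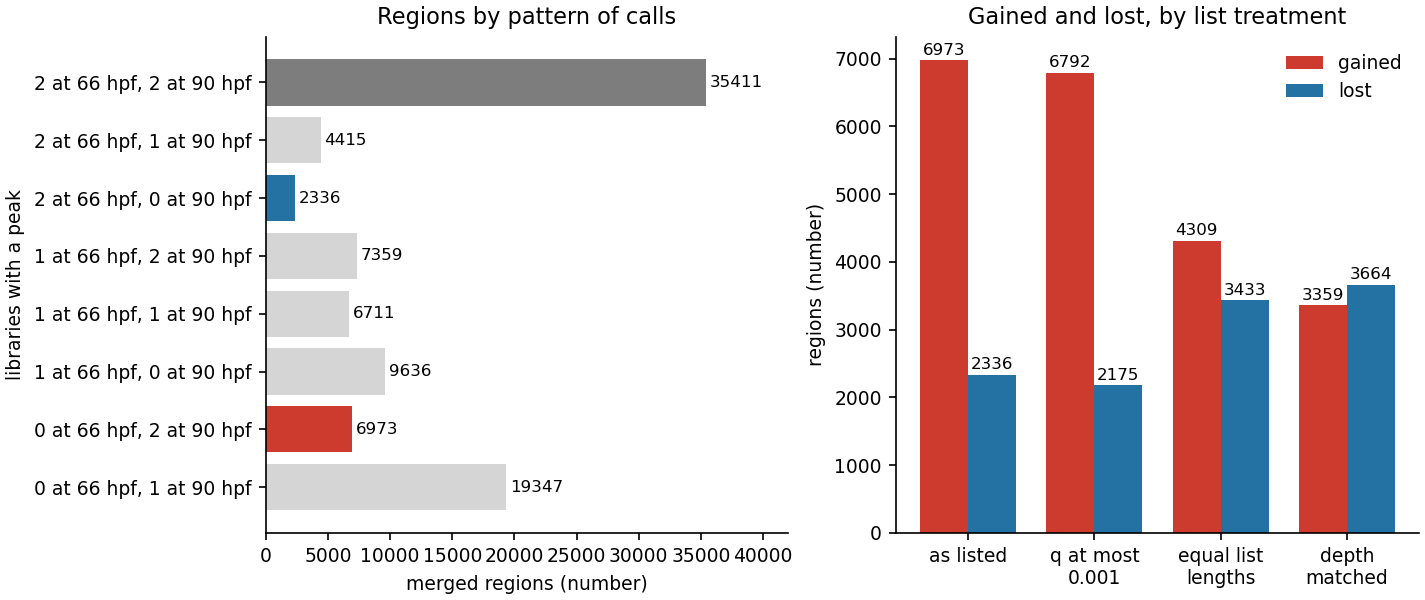
Left, the number of merged regions (x axis) by how many of the 2 libraries at each stage had a peak (y axis), with gained regions in red, lost regions in blue and shared regions in dark grey. Right, the number of gained (red) and lost (blue) regions with the lists as deposited, at a q of at most 0.001, with equal list lengths and after depth matching, where 6973 against 2336 becomes 3359 against 3664.

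Membership rests on calls, so the members next to the limit were inspected. Fold enrichment here is the ratio of summit tags to local background, with 1 added to each, which lowers it more in shallower libraries. In the weaker replicate of a gained region it was 1.89 at the lowest, 3.82 at the median and 18.5 at the highest. For lost regions the same values were 2.17, 4.26 and 18.7. Both replicates passed a q of 0.001 in 6182 gained (88.7%) and 1992 lost regions (85.3%). Just outside the rule, 7359 regions were called in both 90 hpf libraries and in 1 of the 66 hpf libraries, and the lone 66 hpf peak had a median fold enrichment of 4.40. Another 4415 regions were called in both 66 hpf libraries and in 1 of the 90 hpf libraries, with a median of 4.30 for the lone peak. At the stage with 2 calls, the weaker replicate of these left-out regions had a median of 4.17 at 90 hpf and 4.33 at 66 hpf. The gained and lost members had 3.82 and 4.26. The regions left out by a single call were thus no weaker than the members at the median.

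Gained and lost regions were narrow and weak beside shared ones. The rule itself favours this order, since shared regions passed the threshold in all 4 libraries and gained or lost ones missed it at a whole stage. The median merged width was 248 bp (quartiles 210 and 293) for gained, 240 bp (198 and 283) for lost and 392 bp (315 and 527) for shared regions. Regions with mixed calls were narrower than any of these, with a median of 193 bp. No gained region and 1 lost region were wider than 1000 bp, against 488 shared regions. Single peaks within gained regions had a median width of 202 and 214 bp in the 90 hpf replicates, and those within lost regions 203 and 189 bp in the 66 hpf replicates. Peaks within shared regions measured 302 and 297 bp at 66 hpf and 317 and 338 bp at 90 hpf. In all, gained regions covered 1.79 Mb, lost regions 0.577 Mb and shared regions 15.7 Mb of the genome.

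The median fold enrichment of peaks in gained regions was 4.20 and 4.24 in the 90 hpf replicates, and in lost regions 4.84 and 4.61 in the 66 hpf replicates. Shared regions stood at 6.75 and 6.78 at 66 hpf and at 6.42 and 6.80 at 90 hpf. The difference between lost and gained regions turned after depth matching, where the mean of the replicate medians was 5.05 for gained and 4.79 for lost regions. Only 15 and 12 gained regions had a peak among the strongest 10% of the 90 hpf libraries, and 26 and 11 lost regions among the strongest 10% of the 66 hpf libraries, while 15.7 to 20.1% of shared regions did. Across gained regions the fold enrichments of the 2 replicates had a Spearman correlation of 0.61, across lost regions of 0.63 and across shared regions of 0.88 at either stage. These correlations run across regions of the same libraries, in classes of different range, and are a description.

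The strongest gained regions were far above the class median. The first, at NW_024037047.1:30478800-30479213 (assembly Pmin_3.0, as are all coordinates), had a fold enrichment of 21.8 in 90 hpf replicate 1 and 18.5 in replicate 2, from 56 and 53 tags. It lay within the strongest 3.01% and 5.88% of peaks in these libraries. No peak was called there in any 24 or 66 hpf library.

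The second gained region, at NW_024037063.1:7513385-7513756, stood at 17.9 and 19.9. The third, at NW_024037064.1:9636031-9636467, stood at 23.3 and 17.8, and the fourth, at NW_024037075.1:9620890-9621309, at 16.0 and 18.6. Over the 10 strongest, the 90 hpf fold enrichment spanned 13.5 to 23.3 in replicate 1 and 14.4 to 19.9 in replicate 2. They lay on 8 scaffolds and measured 372 to 475 bp, wider than the gained median. Of these 10, only the ninth, at NW_024037047.1:27915306-27915733, had a 24 hpf peak, with a fold enrichment of 4.41 in replicate 1 alone against 13.7 and 16.1 at 90 hpf. Some stood far from other open chromatin of both stages: the fifth, at NW_024037075.1:12849837-12850311, was 460463 bp and the seventh, at NW_024037073.1:11015022-11015464, was 195752 bp from the nearest shared region. Each of these had another gained region nearby, at 284 and 861 bp.

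The strongest lost regions had a different history. The first, at NW_024037071.1:7654345-7654725, had a fold enrichment of 19.1 and 14.2 in the 24 hpf replicates and of 20.5 and 18.7 in the 66 hpf replicates. The second, at NW_024037072.1:4087279-4087700, had 16.7 and 15.3, then 17.4 and 19.0. The third, at NW_024037063.1:18848057-18848704, had 15.8 and 14.6, then 19.3 and 17.2. All 3 were already strong at 24 hpf and, by the class rule, had no peak at 90 hpf.

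Every one of the 10 strongest lost regions was called in both 24 hpf libraries. There their fold enrichment spanned 9.88 to 19.1 (replicate 1) and 9.97 to 15.4 (replicate 2), and at 66 hpf 15.3 to 20.5 and 15.2 to 20.5. At 66 hpf the summits held 38 to 66 tags in replicate 1 and 31 to 64 in replicate 2. All 10 strongest gained and all 10 strongest lost regions kept their class with equal list lengths, after depth matching, with a q of at most 0.001 and with either of the other ways of merging.

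**Figure D2:**
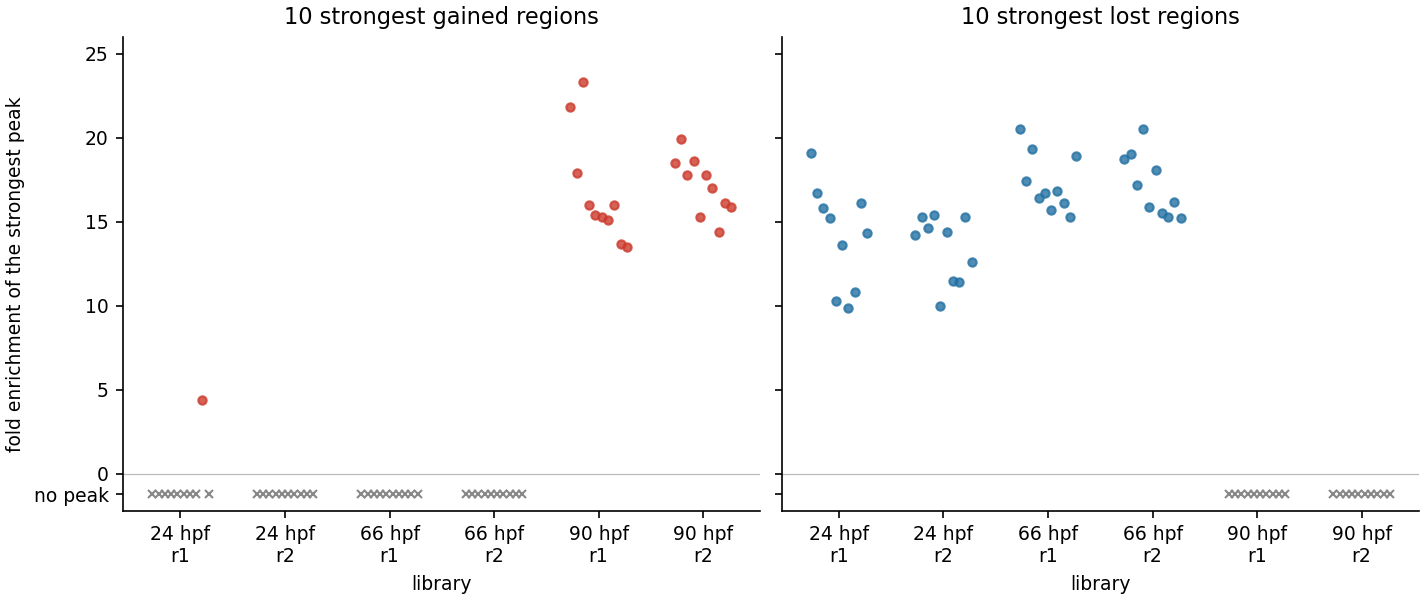
Fold enrichment (y axis) of the strongest peak, library by library (x axis, 6 libraries, r1 and r2 are the replicates) for the 10 strongest gained regions (left, red) and the 10 strongest lost regions (right, blue), where each point is a region and a cross marks a library with no peak. The gained regions appear at 13.5 to 23.3 at 90 hpf with a single point at 24 hpf, whereas all 10 lost regions are at 9.88 or higher at 24 hpf.

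The 24 hpf libraries took no part in choosing the classes. Most lost regions had a peak there and most gained regions had none. Of the 6973 gained regions, 2470 (35.4%, exact 95% binomial interval 34.3 to 36.6) had a peak in either 24 hpf library, 1233 (17.7%) had one in both and 4503 (64.6%) had none. Of the 2336 lost regions, 1721 (73.7%, 71.8 to 75.4) had a 24 hpf peak in either library and 1238 (53.0%) in both. By library, the share was 24.5% and 28.6% for gained and 63.4% and 63.2% for lost regions, so the spread between the replicates was far smaller than the distance between the classes. For shared regions it was 91.3% in either library, for regions with mixed calls 42.8% and for all merged regions 61.6%. The intervals cover counting error only, and neighbouring regions are not independent. After depth matching over all 6 lists the shares were 26.8% and 61.8%. The distance between the classes was much smaller when the classes were set with a single 66 hpf library, 43.5% against 49.7% without replicate 1 and 46.2% against 53.0% without replicate 2.

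The share open at 24 hpf went with strength among lost regions and much less among gained ones. When lost regions were split into 4 equal groups from the lowest to the highest fold enrichment of the weaker replicate, it was 64.9%, 66.6%, 73.1% and 90.1%. The same groups of gained regions held 35.7%, 34.6%, 37.4% and 34.0%, with overlapping intervals. At the top end the classes were farther apart. Of the 100 strongest lost regions 99 had a 24 hpf peak, and of the 100 strongest gained regions 13 did (interval 7.11 to 21.2%). After depth matching the same counts were 100 and 9.

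**Figure D3:**
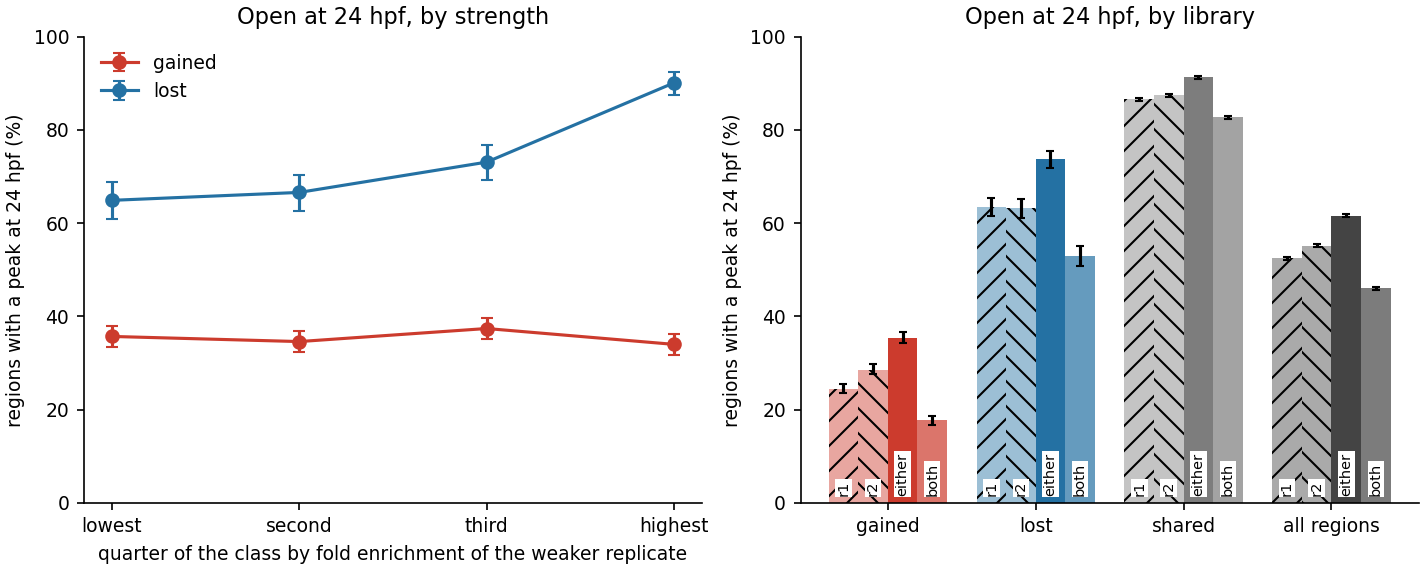
Left, percent of regions with a peak in either 24 hpf library (y axis) for 4 equal groups of the gained (red) and lost (blue) regions ordered by fold enrichment of the weaker replicate (x axis). Right, the same percent by class for replicate 1 (r1), replicate 2 (r2), either and both, with exact 95% binomial intervals as bars in both plots: lost regions go from 64.9% to 90.1% over the groups, while gained regions lie between 34.0% and 37.4%.

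Where gained regions had also been open at 24 hpf, their level was modest at both times. The 1233 gained regions called in both 24 hpf libraries had a median fold enrichment of 4.41 and 4.48 at 24 hpf and of 4.15 and 4.31 at 90 hpf, and the 4503 with no 24 hpf peak had 4.20 and 4.26 at 90 hpf. Lost regions called in both 24 hpf libraries had 5.57 and 5.37 at 24 hpf and 5.28 and 5.11 at 66 hpf, above the 4.40 and 4.26 of the 615 lost regions with no 24 hpf peak.

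Strong regions were sorted by their calls in all 6 libraries, with a minimum fold enrichment of 8 in every library that called them, a limit chosen after the data were seen. Of 405 such regions that were missing from at least 1 library, 122 were called at 90 hpf only, in both replicates, and 83 were called in both replicates at 24 and 66 hpf and not at 90 hpf. In contrast, 1 region was called in both 66 hpf libraries alone, and 0 were called in both replicates at 24 and 90 hpf but not at 66 hpf. With a minimum of 6 the 4 counts were 345, 181, 19 and 5. At a minimum of 8, 78 strong regions were called in both replicates at 66 and 90 hpf and not at 24 hpf. The minimum applies to every library with a call, so a strong gained region with a weak or single 24 hpf peak, such as the ninth strongest, is in none of these counts.

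A group of strong regions went with the replicate number and not with the stage. At the same minimum of 8, 20 regions on 13 scaffolds were called in all 3 replicate 2 libraries and in no replicate 1 library, against 1 region with the reverse pattern. The strongest, at NW_024037072.1:21396819-21397174, had a fold enrichment of 14.6, 15.2 and 15.7 at 24, 66 and 90 hpf in replicate 2 and no peak in any replicate 1 list. Another 40 regions were called in every library but 90 hpf replicate 1, 18 in every library but the first replicates of 24 and 66 hpf, and 13 in every library but 90 hpf replicate 2. The rule for gained and lost regions leaves out such patterns, since it asks for both replicates of a stage. Whether parents, culture or sequencing differed between the replicate numbers was not tested.

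Gained and lost regions were scattered among shared ones. The median distance between region edges, from a gained region to the nearest shared region, was 3836 bp (quartiles 1224 and 9587), and from a lost region it was 4588.5 bp (1183 and 13062.8), against 2515 bp between shared regions. The nearest region of any class was 1045 bp from a gained and 942 bp from a lost region at the median. Within 1 kb of a shared region lay 21.3% of gained and 22.1% of lost regions, and 11.4% and 16.1% lay more than 20 kb away.

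Members far from shared regions had a higher fold enrichment than those near them. Fold enrichment is relative to a local background that can include the tags of neighbouring regions, and its part in this order was not tested. The weaker replicate of gained regions had a median fold enrichment of 3.54 within 1 kb of a shared region, 3.68 at 1 to 5 kb, 4.10 at 5 to 20 kb and 4.44 beyond 20 kb. For lost regions the values were 3.87, 4.04, 4.41 and 4.84. The 100 strongest gained regions lay 14180.5 bp and the 100 strongest lost regions 10431 bp from the nearest shared region at the median. The share of gained regions open at 24 hpf fell along the same bins, 41.1%, 37.1%, 34.2% and 23.1%, and it did so in both 24 hpf libraries: the nearest and farthest bins held 30.6% and 14.1% for replicate 1, 33.1% and 19.8% for replicate 2. Among lost regions the same bins held 73.6%, 72.0%, 73.4% and 77.4%. A 24 hpf peak that spans a shared region and its neighbour counts for both, and the part of such peaks in this order was not tested.

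**Figure D4:**
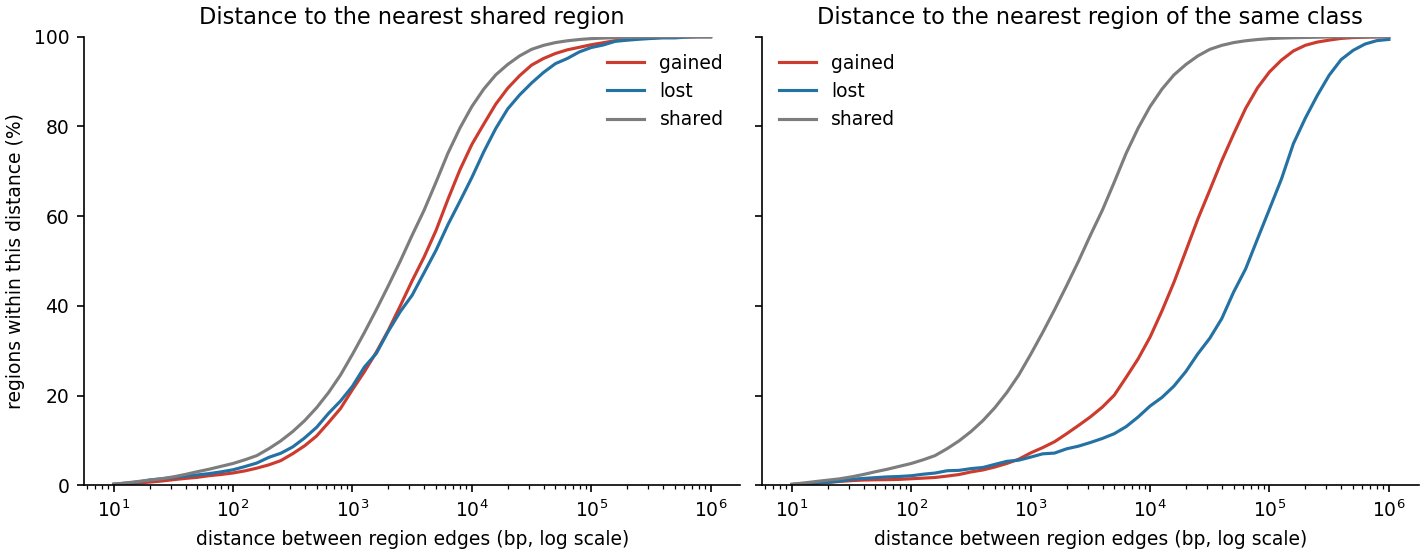
Cumulative percent of regions (y axis) within a given distance between region edges (x axis, log scale) of the nearest shared region (left) and of the nearest region of the same class (right), for gained (red), lost (blue) and shared (grey) regions. Medians to the nearest shared region are 3836, 4588.5 and 2515 bp, and medians to the nearest region of the same class are 18457, 66518 and 2515 bp.

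The nearest other gained region was 18457 bp from a gained region at the median, and the nearest other lost region 66518 bp from a lost one. A gained neighbour within 10 kb was found for 33.1% of gained regions and a lost neighbour for 17.7% of lost regions. These shares depend on how many members each class has, and after depth matching, with classes of near equal size, they were 20.8% and 22.7%. Linking members less than 10 kb apart gave 200 chains of at least 3 gained regions, holding 9.45% of the class, and 13 chains of at least 3 lost regions, holding 1.84%.

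The densest run of gained regions was on NW_024037061.1. There, 7 gained regions lay between 7100001 and 7150000, the most of any 50 kb window of the genome, and 6 more in the next window, up to 7200000, with 1 shared region in each. Their weaker-replicate fold enrichments were modest, 3.43 to 6.87 in the first and 3.60 to 4.74 in the second window. In the first window 4 of the 7 overlapped a 24 hpf peak, 2 of them the same peak, and in the second none of the 6. The highest, at NW_024037061.1:7128734-7129156, had 6.87 and 8.20 in the 90 hpf replicates and 7.67 in 24 hpf replicate 2 alone. A second dense window, from 12850001 to 12900000 on NW_024037058.1, held 6 gained regions among 6 shared ones, and 5 of the 6 gained regions had a 24 hpf peak.

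The densest run of lost regions was on NW_024037048.1, where all 7 lost regions between 6100001 and 6150000 lay in a window with no shared and no gained region. The first of them, at NW_024037048.1:6112753-6113099, was also the seventh strongest lost region, with 9.88 and 11.5 at 24 hpf and 16.8 and 15.5 at 66 hpf. The next, at NW_024037048.1:6113574-6113817, had 4.44 and 5.28 at 66 hpf and was the only member of the run with no 24 hpf peak. The last, at NW_024037048.1:6145813-6146048, had 5.88 and 5.75 at 24 hpf and 7.14 and 6.16 at 66 hpf. In all, 6 of the 7 were open at 24 hpf, and by the class rule none of the 7 had a 90 hpf peak. A different picture was seen from 21300001 to 21350000 on the same scaffold, where 4 lost, 2 gained and 12 shared regions were interleaved. The third window, from 17750001 to 17800000 on NW_024037061.1, held 4 lost regions and 1 shared region, and 3 of the 4 overlapped a 24 hpf peak, 2 of them the same one.

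**Figure D5:**
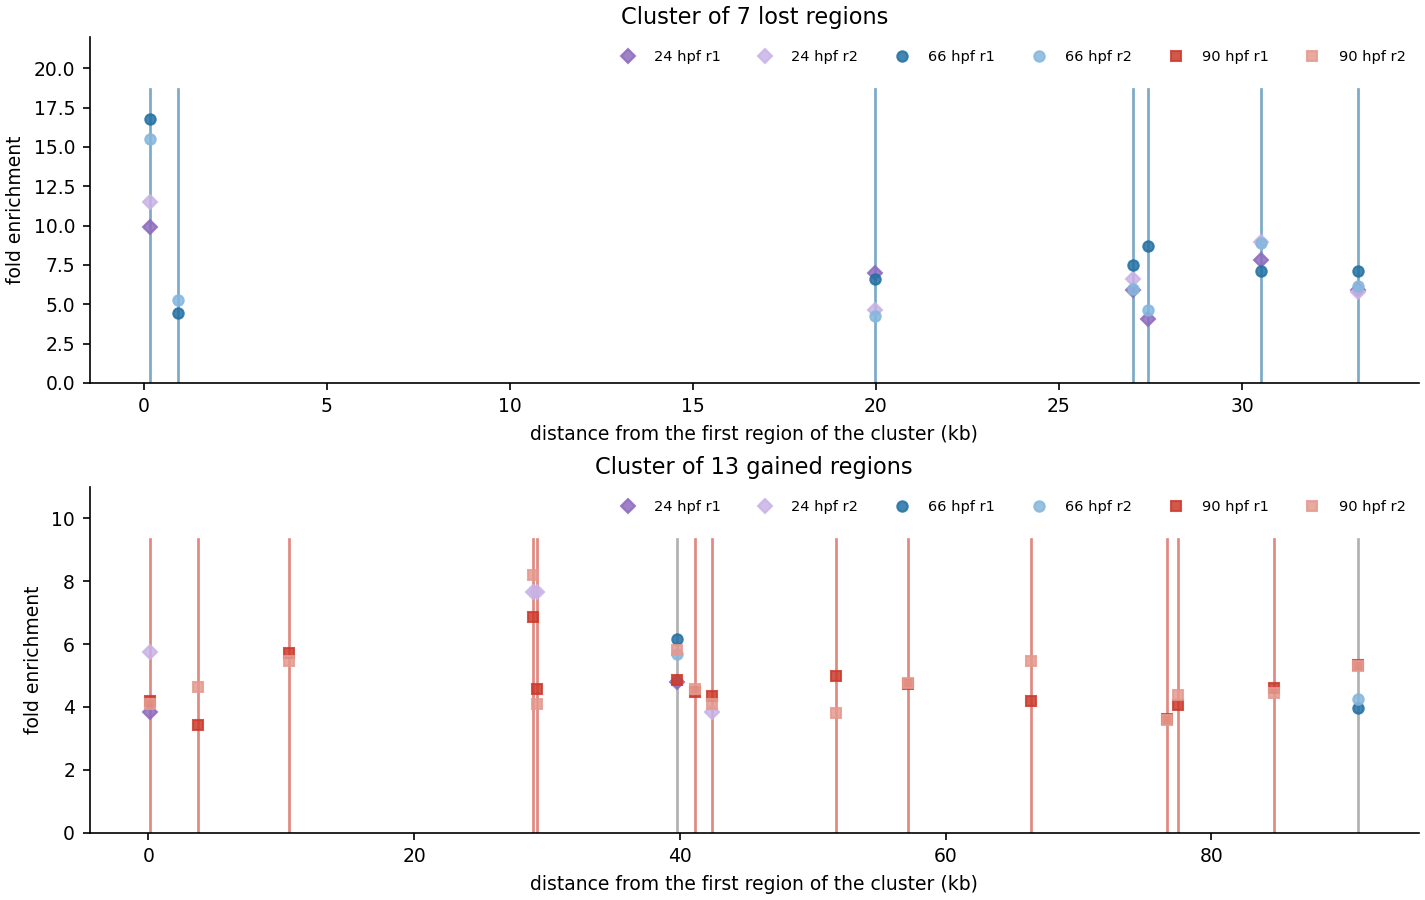
Fold enrichment (y axis) in the 6 libraries against the distance from the first region of the cluster (x axis, kb) for the densest run of lost regions (top, 7 regions) and the 2 adjoining windows richest in gained regions (bottom, 13 gained and 2 shared regions). Each point is a library with a peak, and vertical lines mark lost (blue), gained (red) and shared (grey) regions: at 90 hpf no point remains over the 7 lost regions, and over the gained regions the only points before 90 hpf are at 24 hpf.

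Gains and losses reached every scaffold. Over the 30 scaffolds, each with at least 200 regions, gained regions made up 6.55% (NW_024037070.1) to 10.2% (NW_024037064.1) of the regions, with a median of 7.55%. The exact intervals for NW_024037064.1, 8.35 to 12.2%, and NW_024037047.1, 8.35 to 10.2%, lay above the 7.56% of the whole genome. NW_024037064.1 also had the fewest regions per Mb, 61.1 against a median of 156. Lost regions made up 1.90% (NW_024037060.1) to 4.07% (NW_024037048.1), against 2.53% of the whole genome. The interval of NW_024037048.1 began at 3.27%, and those of NW_024037067.1, NW_024037064.1 and NW_024037054.1 also began above 2.53%, at 2.85%, 2.60% and 2.54%. That of NW_024037074.1, the scaffold with most regions (8943), lay below 2.53%, at 1.86 to 2.47%. The extremes were picked out of 30 scaffolds and the intervals cover counting error only, so they are a description and not a test. In the lists as deposited, gained regions outnumbered lost ones on 30 of 30 scaffolds, and after depth matching on 11 of 30. Of the 10600 windows of 50 kb, 4654 held a gained region, 1981 a lost region and 940 both.

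The strength of the 35411 shared regions was compared between stages with limma on the log2 fold enrichment, centred on the median of each library, with Benjamini-Hochberg adjustment over all shared regions. At an adjusted p of at most 0.05, 1 region was higher and 1 lower at 90 hpf, 0.00282% of those tested in each direction, whereas 2901 and 2539 regions had an unadjusted p below 0.05. The differences were small: their SD over all shared regions was 0.31 on the log2 scale, 5% of regions were below −0.48 and 5% above 0.54, and 0.700% differed by more than 1 in either direction. A region that was not called may still differ.

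The region that was lower lay at NW_024037048.1:16471419-16471671. Its fold enrichment was 12.9 and 11.9 at 24 hpf, 18.9 and 19.0 at 66 hpf and 4.58 and 4.10 at 90 hpf. The log2 difference of 90 minus 66 hpf was −2.07 (SE 0.16, limma adjusted p = 0.0326), and the values of the stages did not overlap. The region that was higher, at NW_024037073.1:690940-691387, had 11.0 and 9.20 at 24 hpf, 9.23 and 9.48 at 66 hpf and 21.6 and 23.9 at 90 hpf. Its log2 difference was 1.34 (SE 0.11, limma adjusted p = 0.0326). The calls changed with the settings: each stayed past the threshold under 6 of 12 alternatives, with limma adjusted p from 0.000947 to 0.140 for the lower and from 0.00164 to 0.140 for the higher region. Leaving out either 66 hpf replicate ended both calls with little change in the log2 difference, in a fit where the lone 66 hpf library is assumed to vary like the 90 hpf pair.

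When summit tags per library background were used in place of fold enrichment over the local background, a measure added after the data were seen, limma called 785 shared regions higher and 2623 lower at 90 hpf, so that 23.0% of the calls were higher. The median difference over all shared regions was then −0.10 on the log2 scale. The summit-tag values were also centred on the median of each library, so they do not measure a change common to all shared regions. The other shared regions with the largest differences in fold enrichment were not called on that scale, and were called on summit tags. The next lowest, at NW_024037073.1:1315404-1315815, had 19.2 and 18.6 at 66 hpf and 6.49 and 4.44 at 90 hpf (limma adjusted p = 0.0668, and 0.00151 on summit tags). The largest increase, at NW_024037075.1:13857632-13857942, went from 4.93 and 3.78 to 14.3 and 11.6, with no 24 hpf peak (limma adjusted p = 0.0722, and 0.0119 on summit tags).

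Shared regions did not move uniformly with their neighbourhood. With no gained region within 10 kb, the median log2 difference of 24625 shared regions was −0.00. It was −0.04 with 1, −0.07 with 2 and −0.14 with at least 3 gained regions, the last over 300 shared regions. On summit tags per library background the order was the opposite, −0.11, −0.08, −0.06 and −0.04, so no direction holds on both scales.

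The study's tables pair some sea star regions with gene identifiers, and these were used to name loci. The rows of the first table used here hold 79 sea star elements conserved between phyla, with the neighbouring gene in the sea urchin or in a hemichordate. This is fewer than the study reports, so the counts below cover a part of its set. Of the 79, 61 overlapped a shared region, 3 a gained and 1 a lost region, 8 only regions with mixed calls and 6 no peak of these 4 libraries. Among all merged regions the shares were 38.4% shared, 7.56% gained and 2.53% lost. These shares are no baseline for the elements. The study took the elements from reproducible ATAC-seq peaks of sea star and sea urchin, so overlap with shared regions was partly set in advance. The 66 shared regions at these elements had log2 differences from −0.68 to 0.76 with a median of −0.01, and limma called none of them (smallest adjusted p = 0.150). On summit tags, 17 of the 66 were lower and 0 higher, 25.8% against 7.41% of all shared regions. They were not compared with shared regions of similar tag number, so the part of tag number in this difference was not tested. Of the 66, 62 had a peak at 24 hpf, near the 91.3% of all shared regions.

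Developmental regulators are given as examples, chosen after their values were seen. None passed the limma test on fold enrichment. At Msx, a homeobox repressor (LOC119739984, NW_024037071.1:9950560-9951825), fold enrichment was 7.90 and 8.26 at 24 hpf, 7.36 and 6.38 at 66 hpf and 6.07 and 5.21 at 90 hpf. At hes1, a bHLH repressor in the Notch pathway (LOC119745696, NW_024037074.1:3071250-3072135), it was 5.75 and 5.60, then 7.44 and 6.81, then 5.81 and 5.63. The limma log2 differences were −0.22 (SE 0.20) and −0.26 (SE 0.18), and neither passed the test (smaller limma adjusted p = 0.540). On summit tags the differences were −0.32 and −0.38, and limma called hes1 lower at 90 hpf (adjusted p = 0.00643) and did not call Msx (adjusted p = 0.0811).

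The difference in fold enrichment was −0.35 (SE 0.16) at pbx, a homeobox cofactor, −0.15 (SE 0.18) at groucho, a corepressor, and −0.22 (SE 0.19) at coup-tf, a nuclear receptor, and none was called. On summit tags pbx (−0.53, limma adjusted p = 0.00268) and groucho (−0.27, limma adjusted p = 0.0173) were lower, and coup-tf was not called (−0.25, limma adjusted p = 0.568). LOC119745554 lies at 2 elements, and its neighbouring genes in the other species are Smads, proteins of TGF-beta signalling. At the element named Smad2/3 or smad6 the difference was −0.08 (SE 0.18) in fold enrichment and −0.35 on summit tags (limma adjusted p = 0.0490). At the element named smad6 alone it was −0.29 (SE 0.12) and −0.54 (limma adjusted p = 0.0279 on summit tags). Among housekeeping loci, eef1G, a translation elongation factor subunit (LOC119743050), stood at 17.9 and 18.6 at 66 hpf and at 16.8 and 18.9 at 90 hpf, and TOP2B, a DNA topoisomerase (LOC119721979), at 18.0 and 16.5 and then 14.2 and 17.6. Their summit-tag differences were −0.34 (limma adjusted p = 0.125) and −0.30 (limma adjusted p = 0.0582), about as large as that of Msx. The stronger of the regions at HMG1, which encodes a chromatin protein (LOC119727136), was lower on summit tags by as much as hes1 (−0.38, limma adjusted p = 0.00560). An element beside a beta integrin gene had the largest increase among these loci, from 10.1 and 10.4 to 20.2 and 13.7. The orthogroup of LOC119721372 or LOC119721376 beside it holds human ITGB1 and ITGB2. This element had no 24 hpf peak and a log2 difference of 0.76 (SE 0.20, limma adjusted p = 0.179). Another element beside the same genes overlapped 2 shared regions, each with a 24 hpf peak, with log2 differences of −0.01 (SE 0.13) and 0.09 (SE 0.19). The element beside MCM6, a subunit of the replicative helicase (LOC119718905, NW_024037074.1:24357877-24358176), was at 11.4 to 12.6 in 5 libraries and had no peak in 90 hpf replicate 1.

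The 3 gained regions at conserved elements were weak, and none has a named gene beside it. At LOC119745556 (NW_024037050.1:3381492-3381692) the fold enrichment was 3.82 and 4.44 at 90 hpf, and at LOC119744722 and LOC119745163 (NW_024037074.1:38168166-38168413) it was 5.73 and 4.48. Neither had a 24 hpf peak. At LOC119741154 and LOC119741155 (NW_024037072.1:27611367-27611513) it was 6.61 and 6.52 at 24 hpf and 4.20 and 5.47 at 90 hpf. The lost region, at LOC119740568 and LOC119742131 (NW_024037072.1:2597558-2597858), had 4.37 and 3.74 at 66 hpf and 2.82 in 24 hpf replicate 1 alone.

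A second table, held here only for parts of 3 scaffolds, links sea star regions to genes. The part held has 1998 elements. Over all merged regions 7.56% were gained and 2.53% lost, and a departure from these shares was not tested here. Within that part, 166 gained regions were linked to 125 genes and 50 lost regions to 47 genes. Most of these genes have no named relative, and 19 of the gained and 8 of the lost regions belong to a gene whose orthogroup holds named human genes. The genes with most gained regions were unnamed: LOC119723127 had 5 gained regions and 1 lost region, LOC119722874 had 4 and 1, and LOC119724145 had 4 gained regions and no lost one.

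Among the named genes with gained regions were several membrane transporters. LOC119723012, in the orthogroup of the ABCB transporters (human ABCB1 and ABCB4), which move lipids and xenobiotics out of cells, had 3 gained regions and none was open at 24 hpf. The strongest, at NW_024037054.1:11723383-11723890, had a fold enrichment of 6.85 and 7.19 at 90 hpf. LOC119723529, in the orthogroup of ABCC4, an organic anion exporter, had 1 at NW_024037055.1:4117864-4118179 with 4.58 and 5.81. LOC119722877, in the orthogroup of the SLC1A glutamate transporters (human SLC1A1 to SLC1A3), had 1 at 3.48 and 3.51.

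LOC119722975, in the orthogroup of the contactins (human CNTN1 and CNTN2), adhesion proteins of neurons, had 2 gained regions. At NW_024037054.1:10889827-10890210 the fold enrichment was 5.14 and 3.83 at 24 hpf and 6.05 and 5.77 at 90 hpf, and at NW_024037054.1:10926712-10926950 it was 4.96 and 4.78 at 90 hpf with no 24 hpf peak. LOC119723321, in the orthogroup of the ST6GALNAC sialyltransferases, which cap glycans, had 2 gained regions as well, of which 1 was called in both 24 hpf libraries. LOC119723528, in the orthogroup of the natriuretic peptide receptors (human NPR1 and NPR2), had 1 distal gained region at 4.96 and 5.13. LOC119723229, in the orthogroup of the secreted proteins WFDC2 and WFDC3, had 2, and both were open in at least 1 of the 24 hpf libraries.

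Some genes had a region of each class, so that a region lost after 66 hpf and one gained by 90 hpf were linked to the same gene. At LOC119723367, in the orthogroup of the phospholipid scramblases (human PLSCR1), the lost region lay upstream (NW_024037055.1:1842064-1842321), with 5.11 and 5.22 at 24 hpf and 6.09 and 4.74 at 66 hpf. The gained region lay over its promoter (NW_024037055.1:1845001-1845251), with 3.43 and 3.31 at 90 hpf. LOC119722950, in the orthogroup of the beta-galactosyltransferases (human B3GALT1), had a lost region close upstream and a distal gained one. LOC119723167, in the orthogroup of the dynein light chains DYNLT4 and DYNLT5, had the same arrangement.

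Named genes with lost regions only included LOC119723129, in the orthogroup of secreted phospholipases A2 (human PLA2G1B), whose promoter region at NW_024037054.1:16512829-16512935 had 4.27 and 4.57 at 24 hpf and 4.81 and 5.35 at 66 hpf. At LOC119723969, in the histone H3 orthogroup, a promoter region (NW_024037055.1:2245542-2245810) went from 6.14 and 5.86 at 24 hpf to 2.68 and 2.68 at 66 hpf and no peak at 90 hpf. LOC119723003, in the beta integrin orthogroup, had a lost region at 4.15 and 4.21 with no 24 hpf peak. These genes were taken from a table held in part, so no gene group was tested, and expression was not measured.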

How the data were processed

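Peak lists of 4 sea star libraries (2 at 66 and 2 at 90 hpf) and 2 at 24 hpf were used. As the study's methods describe, the authors aligned read pairs to Pmin_3.0 with Bowtie2, removed duplicates with Samtools, offset read ends for the transposase, kept short nucleosome-free fragments and called peaks in each replicate with MACS2. Each deposited list gives a score, a fold enrichment (ratio) over local background, and −log10 p and −log10 q values. These lists are per replicate, before the study's later filter for reproducible peaks. Region members, lists and tests were chosen with earlier results of these data known.

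Whole summit tags and local background were recovered from fold enrichment and p for 100% of peaks, within 0.001 in −log10 p. Depth limits the calls, and the intervals cover counting error only. Python 3.11.15 (numpy 2.4.6, pandas 2.3.3, scipy 1.17.1, matplotlib 3.10.9), R 4.3.3 and limma 3.58.1 were used. Merging was checked against bedtools 2.31.1, and the tag recovery and the limma fit were tested on simulated data.

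The text names the 10 gained and 10 lost regions with the highest fold enrichment of the weaker replicate, shared regions that limma called (others named are marked as not called), the 3 windows of 50 kb with most gained and most lost regions, scaffolds with the highest and lowest shares, and loci that the study's tables pair with a gene. No Pmin_3.0 genome or annotation was at hand, so no sequences are shown and the planned gene lists by symbol and loci named only by gene (hh, pbx1a, Tbx2/3) were not analysed here. Alternatives were a q of at most 0.001, other merging rules, equal list lengths, other windows, other normalizations and fits, the replicate number as a block, leaving out each library, and, added later, depth matching and summit tags.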

Additional observations from a re-analysis of the deposited data

How the results depend on the processing

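The counts of gained and lost regions changed with depth matching and list length, and lost regions had the larger 24 hpf share under every alternative run. With equal list lengths there were 4309 gained regions and a gained to lost ratio of 1.26. After depth matching, chosen after the data were seen, there were 3359 gained and 3664 lost regions, and the ratio, 0.917, was reversed. Leaving out 1 library gave 10431 (without 66 hpf replicate 1) to 19111 (without 90 hpf replicate 1) gained regions, 3530 (without 90 hpf replicate 1) to 7390 (without 66 hpf replicate 1) lost regions, 36701 to 39476 shared regions and a ratio of 1.41 to 5.41, where a class needs fewer calls by construction. The percent of gained regions with a 24 hpf peak was 17.7 when both 24 hpf replicates were asked for, 26.8 after depth matching and 24.5 to 46.2 without 1 library. For lost regions it was 53.0 with both 24 hpf replicates, 73.4 at a q of at most 0.001, 72.9 with an overlap of at least 50% of the shorter interval, 69.5 with equal list lengths, 61.8 after depth matching and 49.7 to 76.6 without 1 library.

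Shared regions called higher and lower at 90 hpf by limma (1 and 1) became 0 and 0 with quantile normalization, with no centring, with only the regions above the median fold enrichment and with no trend. They became 21 and 17 with the 24 hpf libraries added, 785 and 2623 on summit tags per library background, and 0 to 44 higher and 0 to 94 lower without 1 library, the most without 90 hpf replicate 2. With the replicate block they were 470 and 246. The deviations of same-numbered libraries had a correlation of 0.148 over 2 pairs, and the labels give only a number, so the block was not used in the main comparison, although the strong regions that went with the replicate number are a hint of pairing from the data, not from the design. A fit without 1 library takes the lone library of that stage to vary like the other stage's pair. The cause of these changes was not tested. Of the values of the other results under these alternatives, 22 stayed within the replicate spread or kept their call, 22 moved and 12 lost their call without a change of direction. A region without a peak has no value here, so changes near the calling threshold cannot be measured.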
